A study of Homo sapiens with 21 samples.

Results

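SRSF7-OE denotes 3 RNA-seq libraries of the human cell line HCC1806 whose genotype label names SRSF7 overexpression, and they were compared over all genes with the 3 libraries of their plasmid control, 1xCtrl. These 6 libraries were chosen by their column names in the revision count table and are 6 of the 21 libraries of the series. HCC1806 is an established line from a triple-negative breast cancer, and both groups were grown attached to plastic in serum-containing medium and scraped near confluence. The same table holds 3 libraries each of SRSF2-OE and SRSF3-OE, labelled as overexpressing SRSF2 or SRSF3, which share the 1xCtrl libraries. A separate table holds the line labelled 3xSR, whose label does not spell out the genes it carries, and its own control 3xCTL, with 3 libraries each. The labels give no vector or promoter, and neither say whether a line is 1 clone or a pool nor whether replicates are separate cultures. P-values therefore measure only the spread between these libraries, which may be technical.

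SRSF7 encodes a serine/arginine-rich (SR) protein, an RNA-binding protein with an RNA recognition motif, a zinc knuckle and a domain of arginine-serine repeats. SR proteins bind exons, help to recruit the spliceosome, and several of them, SRSF7 included, also act in the choice of polyadenylation site and in export of mRNA through the receptor NXF1. Their own transcripts are often held in check by exons that lead to nonsense-mediated decay. The counts here are per gene: they show the level of RNA from a gene, not which exons it contains, and do not separate RNA of an introduced copy from that of the chromosomal gene.

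Depth was between 178.2 and 219.8 M (mega) counts in 1xCtrl and between 234.3 and 303.3 M in SRSF7-OE. CPM denotes counts per mega-count after scaling of the library size. The epithelial markers EPCAM, CDH1, KRT8, KRT18 and KRT19 were all present, with a summed level of 2126 to 2627 CPM in 1xCtrl and 2889 to 3166 CPM in SRSF7-OE, as were the 6 basal markers (3994 to 4842 and 4108 to 4266 CPM). Of 7 fibroblast markers 2 reached 1 CPM (sum 28.6 to 33.1 and 20.97 to 24.1 CPM), of 7 immune markers only CD68 did, with CD3E and MS4A1 at 0 in all 6 libraries (sum 9.87 to 16.4 and 20.8 to 25.5 CPM), and of 5 endothelial markers none did (sum 0.637 to 0.722 and 0.739 to 0.958 CPM). In bulk RNA fewer cells of a type and less RNA per cell cannot be told apart, and the part of these markers in the results was not tested. Libraries differed in how levels moved with the GC content of transcripts, and 1xCtrl replicate 2 stood apart: in the decile of genes with the highest GC content its log2 level was shifted by a median of 0.61 from the average over the 12 libraries in the table, against -0.15 and -0.39 in the other 1xCtrl libraries and 0.24, -0.04 and 0.42 in SRSF7-OE. Many results are therefore also given with each library's GC trend removed or without this library. Where such values are not given, the result may still change.

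**Figure D1:**
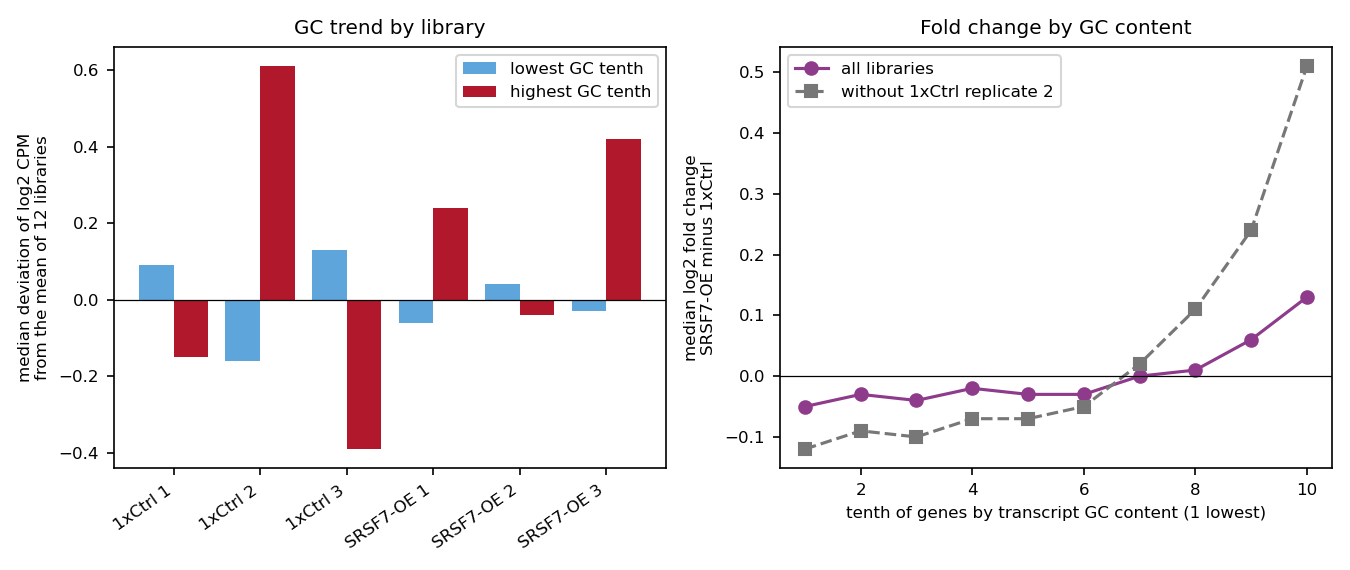
Left, bars give for each library the median shift in log2 CPM relative to the average of 12 libraries, for genes in the lowest (blue) and highest (red) decile of transcript GC content. Right, the median log2 fold change of SRSF7-OE over 1xCtrl in each decile of GC content: it runs from -0.05 to 0.13 with all libraries and from -0.12 to 0.51 without 1xCtrl replicate 2.

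SRSF7 itself was modestly higher in its line. SRSF7 (ENSG00000115875.19, chr2:38743599-38751494, GENCODE 29, GRCh38) measured 364, 352 and 372 CPM in the 1xCtrl libraries and 437, 442 and 425 CPM in SRSF7-OE. Each SRSF7-OE library lay above each control library, but the groups also did not overlap, in either direction, in 32.6% of all genes tested. The fold was 1.20 (0.26 as log2, SE 0.055, edgeR quasi-likelihood test, adjusted p = 0.00616), and the call held in all 18 alternative analyses, with log2 fold changes between 0.22 and 0.28. The other lines of the table were not all lower: SRSF7 stood at 404, 447 and 433 CPM in the libraries labelled SRSF2-OE, which overlap those of SRSF7-OE (log2 difference 0.02, edgeR adjusted p = 0.812), and at 373, 383 and 390 CPM in SRSF3-OE, below them (0.19, edgeR adjusted p = 0.017). In the separate table, 3xSR exceeded 3xCTL in SRSF7 (log2 fold change 0.44, edgeR adjusted p = 3.57e-05).

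Among the 14 SR protein and TRA2 genes, 2 rose and 4 fell, where 9.03% of all genes tested were called higher and 8.26% lower (17.3% in all). The other gene that rose was SRSF9 (log2 fold change 0.19, edgeR adjusted p = 0.0272), a call kept in 11 of 18 alternatives. SRSF2 measured 442, 414 and 477 CPM in 1xCtrl and 335, 351 and 336 CPM in SRSF7-OE. All SRSF7-OE libraries were below all controls, and SRSF2 fell by 0.38 as a log2 fold change (adjusted p = 0.0018 by edgeR, SE 0.0641). Of its exon bases 36.7% are also covered on the opposite strand by MFSD11. The libraries were stranded, but the strand setting of the counting is not given in the sources used here. Whether the counts keep reads of the pair apart is therefore not known. The same holds for SRSF9 and GATC (46.2%). In the libraries labelled SRSF2-OE, used below for comparison, SRSF2 stood at 376, 407 and 413 CPM, not above 1xCtrl (-0.16, edgeR adjusted p = 0.098). Gene counts thus do not show the overexpression named by that label. They do not separate introduced from chromosomal RNA, so whether the label holds was not tested, and SRSF2-OE is used here only as a name. TRA2A, a splicing activator, went from 137, 114 and 136 CPM to 96.7, 105 and 97.2 CPM (-0.37, edgeR adjusted p = 0.00436), SRSF10 from 325, 275 and 333 CPM to 240, 252 and 246 CPM (-0.34, edgeR adjusted p = 0.00938), and SRSF11 fell by 0.29 (edgeR adjusted p = 0.015). In each of these the lowest control was 1xCtrl replicate 2, and no groups overlapped. SRSF1, SRSF3, SRSF4, SRSF5, SRSF6, SRSF8 and TRA2B did not pass, with log2 fold changes from -0.19 (SRSF5) to 0.08 (SRSF3), and SRSF12 was near the floor of 3 counts a library.

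Of 9 genes for the SRPK and CLK kinases and the importer that act on SR proteins, 1 fell: CLK1 (-0.26, edgeR adjusted p = 0.0424, kept in 13 of 18 alternatives). With the GC trend removed 2 fell, and without 1xCtrl replicate 2 1 rose and 3 fell. MYC, the transcription factor studied beside the SR proteins in this series, measured 131, 143 and 125 CPM in 1xCtrl and 160, 157 and 165 CPM in SRSF7-OE. The groups did not overlap (0.27 as log2, SE 0.0574, edgeR adjusted p = 0.00608), but the call was kept in only 13 of 18 alternatives and was among those lost when only the 2 groups were fitted. Its partner MAX rose by 0.30 (edgeR adjusted p = 0.00572), and no other of the 12 tested genes of the MYC, MAX and MXD network passed. 0 of the 12 passed when 1xCtrl replicate 1 or SRSF7-OE replicate 3 was left out.

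**Figure D2:**
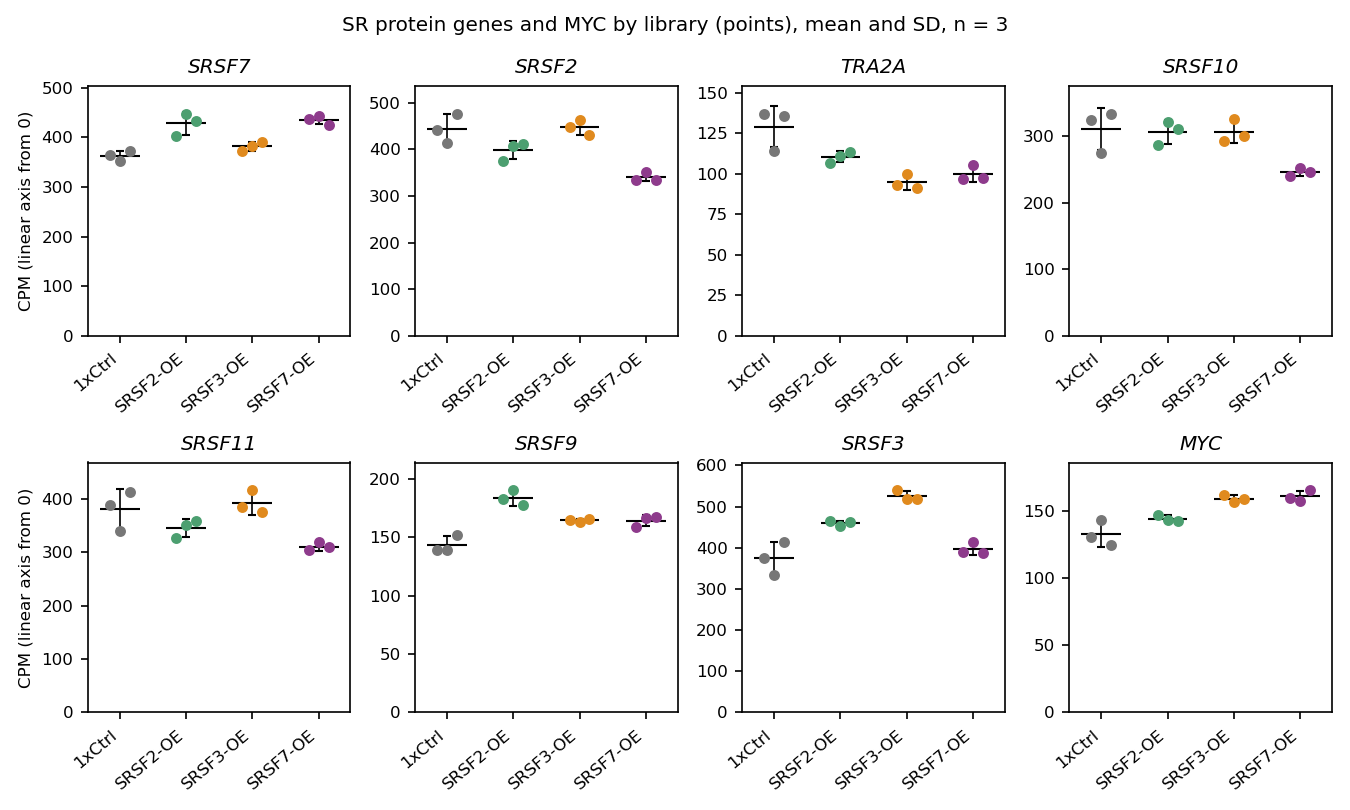
CPM (linear axis from 0) of 7 SR protein genes and MYC in the 4 groups of the table; each point is a library, lines and bars are the mean and SD (n = 3). SRSF7 lies above the controls in both SRSF7-OE (425 to 442 CPM) and SRSF2-OE (404 to 447 CPM), while SRSF2 is lowest in SRSF7-OE (335 to 351 CPM).

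Across all genes, 4214 of the 24362 tested passed an edgeR adjusted p of 0.05. Of these, 4129 had no overlap between the groups, as did 7931 (32.6%) of all genes tested, so a lack of overlap adds little to a call. Most changes were small: the median absolute log2 fold change of called genes was 0.42, and 254 genes were called at least 2-fold higher and 198 at least 2-fold lower. The number rested on single libraries, being 7321 without 1xCtrl replicate 2 and 2685 without SRSF7-OE replicate 3, and it was 7005 with the GC trend removed. The latter fit called 15.1% of all genes higher and 13.7% lower, and the one without 1xCtrl replicate 2 called 16.4% and 12.8%, shares to be set beside the list counts given below for these fits. In the main fit 9.03% were higher and 8.26% lower (2201 and 2013 genes). The numbers were 1378 and 1854 without 1xCtrl replicate 1, and 1766 and 1852 without replicate 3. Without SRSF7-OE replicate 1, 2 or 3 they were 1611 and 1941, 1395 and 1799, or 1351 and 1334. With only the 2 groups fitted they were 1141 and 1110. List counts in these fits are to be read beside these numbers. Of the 4214 genes, 4113 were also called, in the same direction, with the GC trend removed and 4009 without 1xCtrl replicate 2, while 1761 were called the same way in every analysis run. The genes described next are the 14 highest and 14 lowest by log2 fold change among called genes with a symbol, a mean of at least 5 CPM, no overlap between groups and little shared exon sequence. Each of the 28 kept its call in all 18 alternatives.

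Among these 28 genes the largest rise was in CPVL, a serine carboxypeptidase of the secretory and lysosomal pathway (chr7:28995231-29195451). CPVL measured 3.97, 3.58 and 3.93 CPM in 1xCtrl and 16.1, 16.3 and 15.1 CPM in SRSF7-OE. That is 4.14-fold (2.05 as log2, SE 0.101, edgeR adjusted p = 2.48e-07), with replicates of each group within a narrow band. NPNT, nephronectin, a matrix ligand of integrins (chr4:105894775-106004027), went from 5.02, 4.25 and 4.72 CPM to 15.5, 14.8 and 14.5 CPM (1.68, SE 0.0975, edgeR adjusted p = 8.6e-07). SLC1A3, the glutamate and aspartate transporter EAAT1 (chr5:36606355-36688334), went from 26.6, 23.4 and 28.4 CPM to 82.3, 75.0 and 70.4 CPM (1.54, SE 0.0805, edgeR adjusted p = 4.07e-07). For both genes the lowest SRSF7-OE library was far above the highest control.

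Of the next genes by size, UPK2, a uroplakin of the urothelial surface, measured 6.29, 10.5 and 5.65 CPM in 1xCtrl and 19.6, 16.1 and 18.7 CPM in SRSF7-OE (log2 fold change 1.27, edgeR adjusted p = 0.002). NGFR, the p75 neurotrophin receptor, measured 9.12, 12.4 and 7.95 CPM against 23.9, 21.7 and 24.9 CPM (1.26, edgeR adjusted p = 0.000101). In both, 1xCtrl replicate 2 was the highest control, and without it the log2 fold changes were 1.61 and 1.48. LCN2, an iron-siderophore-binding lipocalin, went from 8.91, 9.32 and 6.504 CPM to 20.7, 16.6 and 18.3 CPM (1.17, edgeR adjusted p = 9.73e-05), and SLC40A1, the iron exporter ferroportin, rose by 1.23 (3.73 ± 0.226 to 8.74 ± 0.237 CPM, SD, n = 3). FN1, fibronectin, went from 39.99, 39.4 and 38.1 CPM to 90.6, 92.9 and 81.8 CPM (1.17, SE 0.0847, edgeR adjusted p = 6.7e-06). The remaining members were PLAAT4, a phospholipase and acyltransferase (1.28), the zinc finger gene ZNF711 (1.27), ADD2, the cytoskeletal protein beta-adducin (1.24), LBH, a transcriptional cofactor (1.15), ANXA6, a calcium-dependent membrane-binding annexin (1.14), and the interleukin 7 receptor gene IL7R (1.12). A lack of overlap between SRSF7-OE and the controls was a condition for choosing these genes.

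Among the 14 lowest genes, the largest change was in HMCN1, hemicentin, a giant matrix protein (chr1:185734551-186190949). HMCN1 measured 27.4, 21 and 26.4 CPM in 1xCtrl and 7.54, 8.78 and 7.70 CPM in SRSF7-OE. It was 3.12-fold lower (-1.64 as log2, SE 0.113, edgeR adjusted p = 4.31e-06). PLCXD3, a phospholipase C-like gene, went from 42.6, 29.6 and 40.9 CPM to 16.2, 15.4 and 15.3 CPM (-1.27, edgeR adjusted p = 2.71e-05). EDNRB, the endothelin receptor type B (chr13:77895481-77975529), went from 13.5, 10.8 and 12.8 CPM to 4.88, 4.98 and 5.47 CPM (-1.27, SE 0.123, edgeR adjusted p = 4.8e-05). For both, 1xCtrl replicate 2 was the lowest control and still well above every SRSF7-OE library.

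Several of the other decreases were in genes of the cell surface. CDH11, a mesenchymal cadherin, went from 29.3, 21.4 and 26.2 CPM to 11.3, 10.6 and 11.3 CPM (-1.21, edgeR adjusted p = 1.49e-05). PTPRZ1, a receptor tyrosine phosphatase, fell by 1.05, PCDH9, a protocadherin, by 0.86, and ROR1, a receptor of WNT5A, by 0.85 on the log2 scale. Further decreases were in the long non-coding RNA LINC02474 (-1.03), JPH3, a junctophilin that ties plasma membrane to endoplasmic reticulum (-0.99), CHP1P2 (-0.98), FHAD1 (-0.95), NPFFR2, the neuropeptide FF receptor (-0.91), CYP27C1, a retinoid desaturase (-0.89), and ABCC2, the export pump MRP2 (-0.89). CHP1P2 is a pseudogene, and reads could be split between it and its parent gene.

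**Figure D3:**
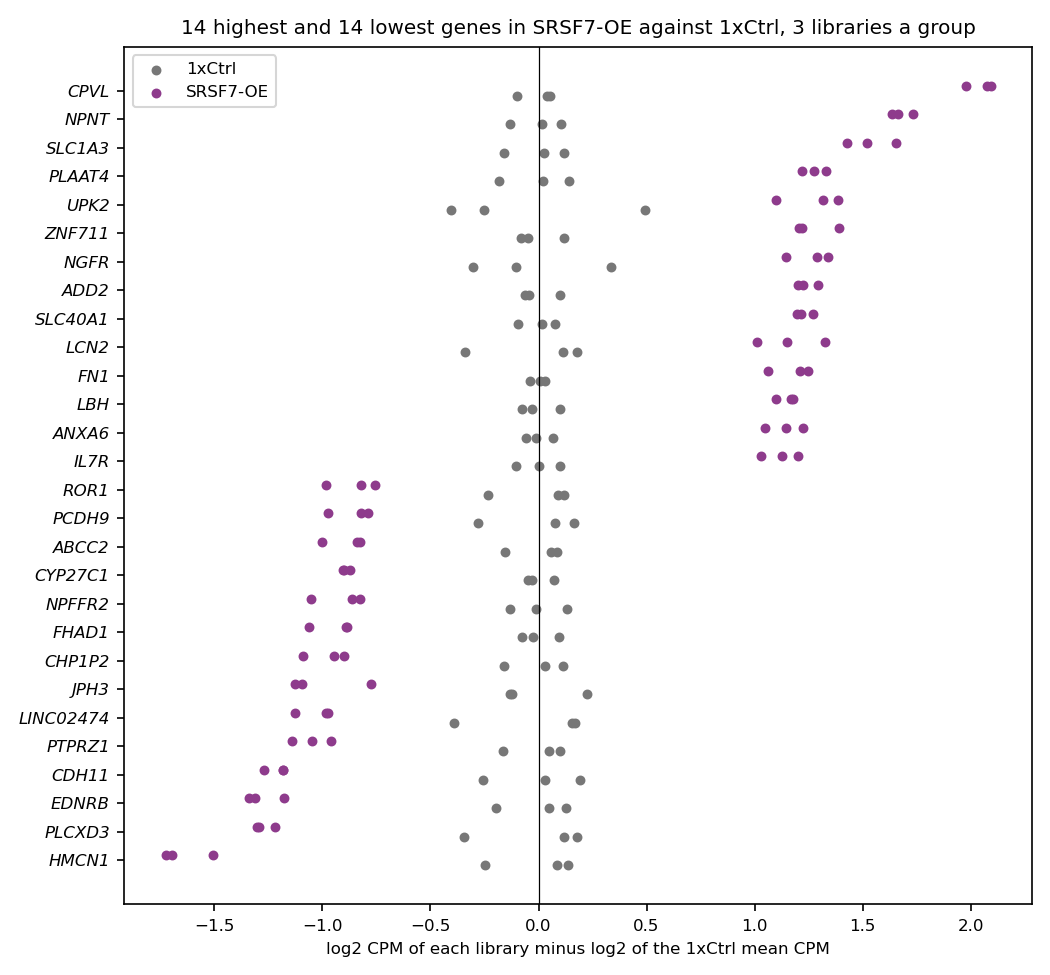
Log2 CPM of each library minus the log2 of the 1xCtrl mean, for the 14 highest and the 14 lowest genes; grey points are the 3 1xCtrl libraries and purple points the 3 SRSF7-OE libraries. A gap between the groups was a condition for choosing these genes. CPVL has the largest shift upward (2.05) and HMCN1 the largest downward (-1.64).

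As MYC was called higher, the promoters of these 28 genes were searched for the E-box CACGTG, the sequence bound by MYC with MAX, which reads the same on both strands. RefSeq windows (GRCh38.p14, 250 bases before the start site) were matched for 11 of the 14 highest genes, of which 1 (9.09%) held the motif, and for 8 of the 14 lowest, of which 0 did. Among 13984 tested genes with a window 10.4% held it. The 1 match, in ANXA6 (chr5:151157780-151158029, minus strand), is shown with the E-box in capitals. Beside it is the window of CPVL (chr7:29195268-29195517, minus strand), which had the largest rise among these 28 genes and has no match. A match is a description of letters and not a site of binding.
ANXA6: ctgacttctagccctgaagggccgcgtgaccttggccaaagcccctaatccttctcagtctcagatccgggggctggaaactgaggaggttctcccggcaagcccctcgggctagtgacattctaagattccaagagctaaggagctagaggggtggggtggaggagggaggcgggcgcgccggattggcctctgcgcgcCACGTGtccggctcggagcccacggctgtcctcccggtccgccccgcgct
CPVL: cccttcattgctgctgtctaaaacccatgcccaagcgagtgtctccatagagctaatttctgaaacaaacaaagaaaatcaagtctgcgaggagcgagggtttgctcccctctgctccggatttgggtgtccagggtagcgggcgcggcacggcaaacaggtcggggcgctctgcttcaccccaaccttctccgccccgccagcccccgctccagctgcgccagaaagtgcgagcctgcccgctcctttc

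Genes of the cytosolic ribosome rose as a group. Of 77 ribosomal protein genes 59 were called higher and 0 lower, with a median log2 fold change of 0.34 where that of all genes tested was 0.00. RPL13 went from 155, 195 and 161 CPM to 241, 238 and 256 CPM (0.52, SRSF7-OE above all controls, edgeR adjusted p = 0.00156). RPL35 (0.77) and RPS21 (0.71), the largest log2 fold changes among those called, kept their calls in 11 and 12 of 18 alternatives, and their controls ranged from 113 to 205 CPM and from 86.1 to 143 CPM with replicate 2 highest. RPL14 (0.08, edgeR adjusted p = 0.522) and RPS16 (-0.08, edgeR adjusted p = 0.399) were among the 18 that did not pass. The number called higher was 70 with the GC trend removed (15.1% of all genes higher) or without 1xCtrl replicate 2 (16.4%), 32 without 1xCtrl replicate 1, 34 without SRSF7-OE replicate 2, 27 when only the 2 groups were fitted, and 37 (median 0.27) with the trend on transcript length removed, where 7.81% of all genes were higher and 8.86% lower. In the fits with 32, 34 and 27, the number of all genes called higher also fell, from 2201 to 1378, 1395 and 1141. Over all genes, transcripts of 986 to 1600 bases had a median log2 fold change of 0.11 and the shortest decile -0.24. Ribosomal protein genes have many near-identical pseudogenes, so single values are uncertain.

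The other lines of the table were also above the shared controls. The summed level of the 77 genes was 27760, 29450 and 28790 CPM in 1xCtrl and 35740, 37690 and 36170 CPM in SRSF7-OE. It was 36350, 34280 and 33270 CPM in SRSF2-OE and 35070, 33230 and 35540 CPM in SRSF3-OE, in each library more than in any 1xCtrl library. Against the mean of those lines, 8 genes were higher and 4 lower in SRSF7-OE, a median of 0.08, where 16.7% and 15.5% of all genes were called. In 3xSR against 3xCTL 8 were higher and 4 lower, with a median of 0.02, where 15.3% and 13.7% of all genes were.

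Most ribosomal protein mRNAs begin with a terminal oligopyrimidine (TOP) tract, a cytosine at the start site followed by pyrimidines, which ties their translation to mTOR signalling. A tract, taken as C at the RefSeq start site followed by 4 bases that are each C or T, was present in 45 of the 61 ribosomal protein genes with a window (73.8%), against 6.65% of all tested genes with one. Of the genes called higher 33 of 46 had it (71.7%), and of those that did not pass 12 of 15 (80%). In the following windows, 15 bases before and 15 from the start site onward (RefSeq, GRCh38.p14), capitals mark the tract; the first 4 genes rose, the others did not pass.
RPL35 (chr9:124861943-124861972, minus strand): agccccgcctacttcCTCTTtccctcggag
RPS21 (chr20:62387088-62387117, plus strand): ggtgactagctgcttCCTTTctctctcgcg
RPS19 (chr19:41860240-41860269, plus strand): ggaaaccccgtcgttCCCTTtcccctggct
RPL13 (chr16:89560667-89560696, plus strand): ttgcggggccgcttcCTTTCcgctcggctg
RPL14 (chr3:40457324-40457353, plus strand): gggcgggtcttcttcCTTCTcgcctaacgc
RPS16 (chr19:39435935-39435964, minus strand): gtggcccctagctttCCTTTtccggttgcg
The tract is thus present in both kinds of gene, from RPL35 with its rise of 0.77 to RPS16 at -0.08.

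Genes that build the ribosome in the nucleolus did not move together. Of 34 genes, 5 rose and 3 fell, with a median of 0.01. The rise included NHP2, a snoRNP protein (0.60), and NPM1, nucleophosmin (0.30), the fall the snoRNP proteins NOP56 (-0.22) and fibrillarin, FBL (-0.18). The number that rose was 10 with the GC trend removed (5 fell) or without 1xCtrl replicate 2 (7 fell), 3 without SRSF7-OE replicate 1, 2 without 1xCtrl replicate 3, 1 without SRSF7-OE replicate 2, and 0 without 1xCtrl replicate 1 or SRSF7-OE replicate 3 (3 and 1 fell). Against the mean of SRSF2-OE and SRSF3-OE, 29 of the 34 were lower in SRSF7-OE and 0 higher, with a median of -0.32, where 15.5% of all genes were lower.

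Protein-coding genes of the mitochondrial genome were at or below the control level. Of 13 genes, 4 fell and 0 rose, with a median of -0.32 and all 13 log2 fold changes between -0.56 and -0.22. Their sum was 85650, 65910 and 82000 CPM in 1xCtrl and 65130, 63870 and 59280 CPM in SRSF7-OE, so that 1xCtrl replicate 2 lay just above the highest SRSF7-OE library. The genes that fell encode subunits of complex I, MT-ND6 (-0.56), MT-ND1 (-0.41) and MT-ND2 (-0.36), and of complex IV, MT-CO2 (-0.32). When 1xCtrl replicate 2 was left out 12 fell, without SRSF7-OE replicate 1 7, without 1xCtrl replicate 1 or 3 2, and without SRSF7-OE replicate 3 0. The number was 8 with the GC trend or the length trend removed, with no filter or with a minimum of 10 counts in every library, 9 with DESeq2, 2 when only the 2 groups were fitted and 1 with a replicate block. Against the mean of SRSF2-OE and SRSF3-OE, whose sums were 73420 to 96290 CPM, 12 of 13 were lower (median -0.44), where 15.5% of all genes were lower.

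**Figure D4:**
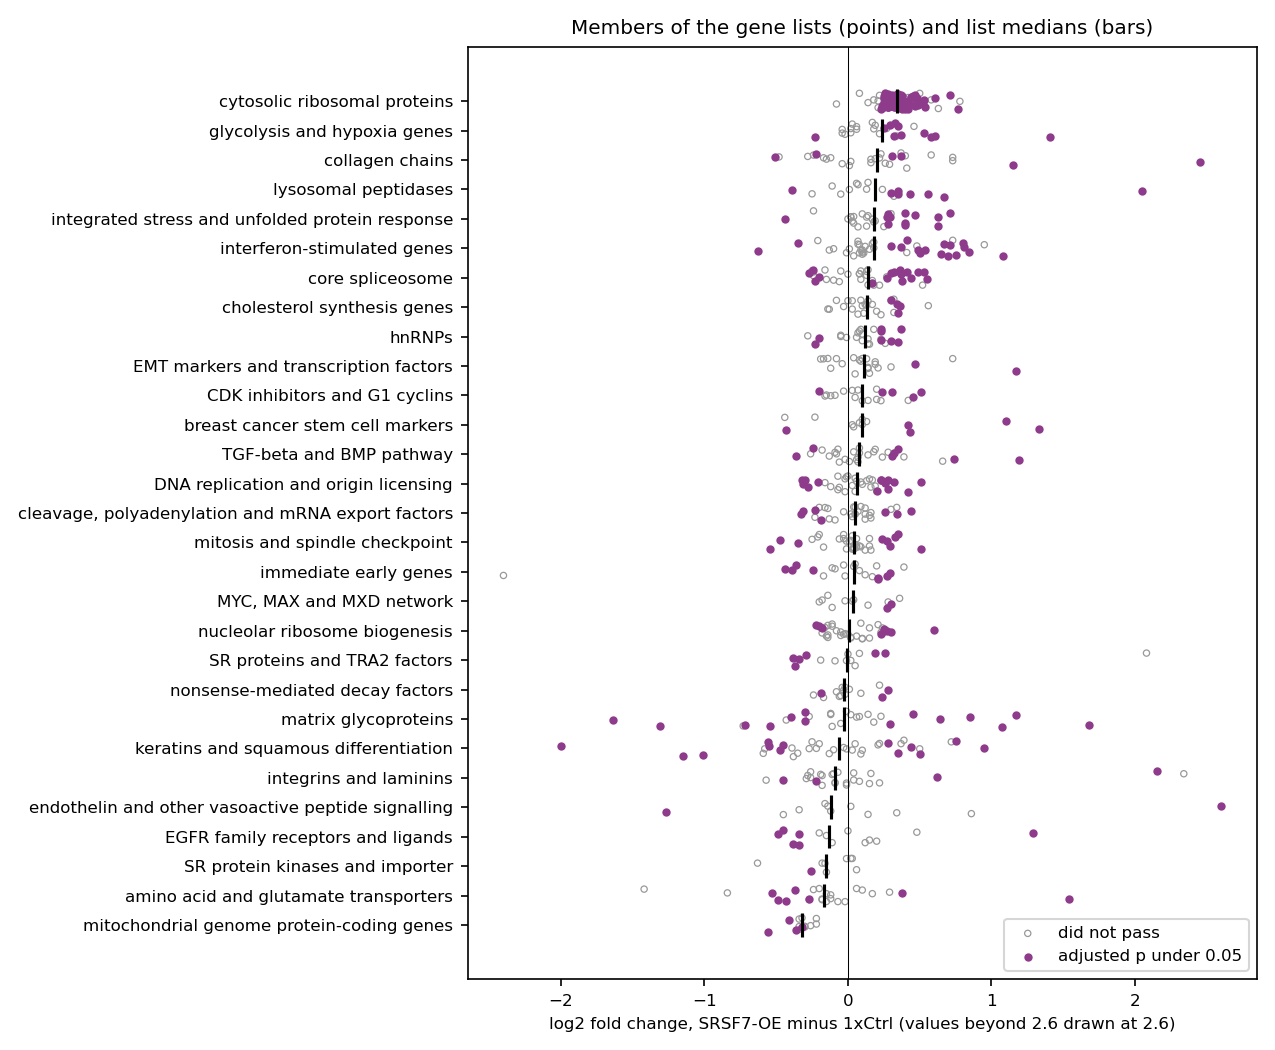
Log2 fold change of SRSF7-OE over 1xCtrl for the tested members of 29 gene lists, ordered by their median (black bar); filled points passed an edgeR adjusted p of 0.05 and open points did not, and values beyond 2.6 are drawn at 2.6. Ribosomal proteins have the highest median (0.34) and mitochondrially encoded proteins the lowest (-0.32).

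Core spliceosome genes gave 13 higher and 4 lower of 40, with a median of 0.14. Among those that rose, SNRPF, an Sm protein, went from 43.2, 46.3 and 49.0 CPM to 66.4, 69.0 and 67.5 CPM (0.55, edgeR adjusted p = 7.74e-05), and SNRPG (0.53), SNRPD2 (0.49) and SNRPC (0.44) were next by size. The genes that fell were SNRNP200, the helicase that unwinds U4/U6 (-0.27), PRPF3 (-0.24), SRRM1 (-0.23) and U2AF1 (-0.20). With 1xCtrl replicate 2 left out 21 were higher and 6 lower, and with the GC trend removed 15 and 8. Against the mean of the other lines, 2 were higher and 18 lower, where 16.7% of all genes were higher and 15.5% lower.

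Of 24 hnRNP genes, RNA-binding proteins that often act against SR proteins at exons, 6 rose and 2 fell (median 0.12). HNRNPF rose by 0.37, HNRNPC by 0.35 and HNRNPAB by 0.30, and HNRNPH1 (-0.23) and HNRNPL (-0.20) fell. Without SRSF7-OE replicate 3 3 rose. With the GC trend removed 9 rose and 3 fell, and without 1xCtrl replicate 2 8 and 3. Where 9.03% of all genes rose and 8.26% fell, 3 rose and 4 fell among 30 cleavage, polyadenylation and mRNA export factors. The former were the TREX subunits THOC7 (0.44) and THOC3 (0.34) and the export cofactor NXT1 (0.26), the latter the helicase DDX39B (-0.33, with 30.8% of its exon bases shared with the readthrough gene ATP6V1G2-DDX39B), the TREX subunit THOC1 (-0.31), the export receptor NXF1 (-0.23) and PCF11 (-0.19), a termination factor. NXF1 measured 124, 124 and 122 CPM in 1xCtrl and 107, 105 and 102 CPM in SRSF7-OE, and its groups did not overlap (edgeR adjusted p = 0.0182). With the GC trend removed 7 rose and 9 fell, NXT1 no longer among them (0.21, edgeR adjusted p = 0.0644), and without 1xCtrl replicate 2 7 and 7. Of 15 nonsense-mediated decay factors, the exon junction proteins MAGOH (0.28) and RBM8A (0.24) rose and UPF3A (-0.19) fell, the latter a call kept in 9 of 18 alternatives and lost after GC trend removal (-0.14, edgeR adjusted p = 0.111). The share of this list that was called was near that of all genes (17.3%). 0 rose without 1xCtrl replicate 1 or SRSF7-OE replicate 2 (2 fell in each case), and 0 of the 15 were called without SRSF7-OE replicate 3.

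Metabolic and stress genes rose more often than they fell. Of 26 glycolysis and hypoxia genes 10 rose and 1 fell, with a median of 0.23. EGLN3, an oxygen sensor, measured 1.39, 1.05 and 1.64 CPM in 1xCtrl and 3.72, 3.87 and 3.21 CPM in SRSF7-OE (1.41, edgeR adjusted p = 9.94e-05), and NDRG1 went from 99.6, 93.0 and 92.8 CPM to 141, 151 and 143 CPM (0.61, edgeR adjusted p = 7.86e-05). The glycolytic enzymes ALDOC (0.58), PKM (0.37), TPI1 (0.35), GAPDH (0.33), ENO1 (0.29) and PGK1 (0.25) were called higher, while VEGFA fell by 0.23. The number that rose was 6 without 1xCtrl replicate 1 or SRSF7-OE replicate 2 and 16 without 1xCtrl replicate 2.

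Of 29 genes of the integrated stress and unfolded protein response 11 rose and 1 fell (median 0.18). They included the serine synthesis enzymes PSAT1 (0.47), PHGDH (0.40) and PSPH (0.40), asparagine synthetase ASNS (0.28), the transcription factor CEBPB (0.63, but 0.31 and not called after GC trend removal, adjusted p = 0.472 by edgeR) and the endoplasmic reticulum proteins SDF2L1 (0.71), PDIA6 (0.29) and PDIA4 (0.28), whereas ATF3 fell (-0.44). 6 rose without 1xCtrl replicate 1 or SRSF7-OE replicate 1, and 7 without SRSF7-OE replicate 3. Of 25 cholesterol synthesis genes 4 rose and 0 fell: INSIG1 (0.36), FDFT1 (0.35), ACAT2 (0.34) and IDI1 (0.30). 11 of them rose with the GC trend removed or without 1xCtrl replicate 2.

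Among 24 amino acid transporters tested, SLC1A3 (1.54) and the neutral amino acid transporter SLC1A4 (0.38) rose, and 5 fell: SLC7A6 (-0.53), SLC38A7 (-0.49), SLC36A1 (-0.43), SLC38A2 (-0.37) and SLC36A4 (-0.27). When 1xCtrl replicate 2 was left out 6 rose and 9 fell, and with the GC trend removed 2 and 8. Of 18 lysosomal peptidases 7 rose, with CPVL first, then CTSO (0.67), CTSS (0.56), CTSF (0.43), CTSH (0.35), CTSB (0.35) and CTSZ (0.30), and CTSC fell (-0.39). CTSS measured 11.7, 9.96 and 10.96 CPM in 1xCtrl and 16.7, 16.1 and 15.3 CPM in SRSF7-OE, with no overlap. Of the peptidases 10 rose and 1 fell without 1xCtrl replicate 2, and 8 and 1 with the GC trend removed.

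Interferon-stimulated genes gave 15 higher and 2 lower of 41, with a median of 0.18. Many were of low level: CMPK2 (0.380, 0.507 and 0.321 CPM against 0.808, 0.953 and 0.795 CPM, log2 fold change 1.08, edgeR adjusted p = 0.0102) was the largest. BST2, tetherin, went from 10.8, 15.6 and 9.10 CPM to 22.8, 18.3 and 22.6 CPM (0.84), and IFI27 (0.80), RSAD2 (0.81) and OASL (0.75) also rose. The genes that fell were IRF9, from 8.57, 8.54 and 8.94 CPM to 6.24, 5.46 and 5.16 CPM (-0.63, edgeR adjusted p = 0.0014), and STAT2 (-0.35), which encode subunits of the factor ISGF3. Of the exon bases of IRF9 48.4% are shared on the same strand with another annotated gene. 8 genes rose without 1xCtrl replicate 1 and 10 without SRSF7-OE replicate 3. With the GC trend removed 22 rose and 2 fell, and without 1xCtrl replicate 2 18 and 3. Against the mean of the other lines 23 were higher and 1 lower (median 0.33), where 16.7% of all genes were higher.

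Cell cycle genes were called in both directions, where 9.03% of all genes tested were higher and 8.26% lower. Of 35 DNA replication genes 9 rose and 5 fell, with MCM2 (0.51) and PCNA (0.42) on one side and ORC6 (-0.32), POLE (-0.31) and CLSPN (-0.30) on the other. 4 rose without 1xCtrl replicate 1 or SRSF7-OE replicate 1 or 3, and 5 without SRSF7-OE replicate 2. With the GC trend removed 12 rose and 5 fell, and without 1xCtrl replicate 2 12 and 6. Of 35 mitotic genes 6 rose and 3 fell: SPC25 (0.51) and UBE2C (0.35) were among those that rose, and KNL1 (-0.54), ASPM (-0.47) and the proliferation marker MKI67 (-0.35) fell. MKI67 measured 1236, 1129 and 1266 CPM in 1xCtrl and 1007, 1014 and 821 CPM in SRSF7-OE, with no overlap (edgeR adjusted p = 0.0227). The 3 mitotic genes that fell were a share near that of all genes. Of the mitotic genes 3 rose and 5 fell without SRSF7-OE replicate 2, 9 and 7 without 1xCtrl replicate 2, and 8 and 6 with the GC trend removed. Among 19 CDK inhibitor and G1 cyclin genes tested, CDKN2C (0.51), CDKN1A, the p53 target p21 (0.45), CDK4 (0.31) and CCND1 (0.24) rose and E2F2 (-0.20) fell. 1 gene rose without 1xCtrl replicate 1 or SRSF7-OE replicate 3, and 2 without 1xCtrl replicate 3, while 6 rose and 3 fell with the GC trend removed.

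Of 28 matrix glycoproteins 7 rose and 7 fell (median -0.03). The first group held NPNT, FN1, the fibrillin FBN2 (12.2, 9.30 and 11.6 CPM against 24.3, 24.7 and 20.6 CPM, log2 fold change 1.07) and versican, VCAN (0.85). The second held HMCN1, tenascin C, TNC (6.05, 6.75 and 5.53 CPM against 2.26, 2.87 and 2.26 CPM, log2 fold change -1.31), THBS2 (-0.72), THBS1 (-0.54) and the fibrillin FBN1 (-0.40). With any one library left out, 7 rose and between 5 and 7 fell, except that 10 rose without 1xCtrl replicate 2. Of 28 collagen chains 4 rose and 2 fell, not far from the shares of all genes (9.03% and 8.26%). COL8A1 (2.45, from 0.210, 0.078 and 0.121 CPM to 0.850, 0.610 and 0.761 CPM), COL4A4 (1.15), COL5A2 (0.37) and COL4A1 (0.31) rose, and COL12A1 (-0.51) and COL4A5 (-0.22) fell. 13 collagens rose without 1xCtrl replicate 2, 4 fell without 1xCtrl replicate 3, and 7 rose and 5 fell with the GC trend removed. The call of COL4A1 was kept in 10 of 18 alternatives.

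ITGA4, integrin alpha 4, measured 1.64, 1.51 and 1.79 CPM in 1xCtrl and 8.17, 7.42 and 6.28 CPM in SRSF7-OE, with no overlap (4.43-fold, log2 fold change 2.15, edgeR adjusted p = 8.6e-07). The other lines, which share these controls, had 5.69 to 6.33 CPM (SRSF2-OE) and 9.19 to 11.3 CPM (SRSF3-OE), and the difference of SRSF7-OE from their mean was -0.08 (edgeR adjusted p = 0.591). Of 26 integrin and laminin genes tested 2 rose and 2 fell, a share near that of all genes. ITGB2 (0.62, a call kept in 7 of 18 alternatives) was the other that rose, and LAMA3 (-0.45) and LAMB1 (-0.22) fell. 3 rose and 7 fell without 1xCtrl replicate 2, 1 rose without any other single library, and 4 rose and 7 fell with the GC trend removed. Of 22 markers and transcription factors of epithelial-mesenchymal transition, FN1 and TWIST2 (0.47) rose and 0 fell, where 9.03% of all genes rose and 8.26% fell. Without 1xCtrl replicate 2, 7 of these 22 rose and 1 fell.

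Epithelial differentiation genes also split. Of 36 keratin and squamous genes tested 6 rose and 7 fell. KRT8 went from 268, 395 and 249 CPM to 514, 473 and 548 CPM (0.75, edgeR adjusted p = 0.00598) and its partner KRT18 from 348, 422 and 349 CPM to 505, 502 and 511 CPM (0.44, edgeR adjusted p = 0.00257), the simple-epithelium keratins, both with 1xCtrl replicate 2 nearest to SRSF7-OE. The number that rose was 0 without 1xCtrl replicate 1, 1 without SRSF7-OE replicate 3, 2 without SRSF7-OE replicate 1, 3 without 1xCtrl replicate 3 or SRSF7-OE replicate 2, and 12 without 1xCtrl replicate 2, while 7 to 9 fell. With the GC trend removed 9 rose and 13 fell. The genes that fell were FLG, filaggrin (0.854, 0.841 and 0.847 CPM against 0.142, 0.243 and 0.249 CPM, log2 fold change -2), SPRR3 (-1.15), KRT1 (-1.01) and the desmosome genes DSC2 (-0.56), DSG3 (-0.55), DSP (-0.47) and DSC3 (-0.45).

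Of 14 EGFR family genes 1 rose and 5 fell: EREG (-0.49), EGF (-0.45) and EPGN (-0.38), which are ligands, and the receptors EGFR (-0.34) and ERBB3 (-0.34), with ERBB4 rising (1.29) from at most 0.165 CPM. EGFR measured 859, 739 and 835 CPM in 1xCtrl and 678, 664 and 580.1 CPM in SRSF7-OE, without overlap (edgeR adjusted p = 0.0122). The call of ERBB4 was lost without 1xCtrl replicate 3 or SRSF7-OE replicate 2 or 3, and 3 rose and 6 fell with the GC trend removed. Of 30 TGF-beta and BMP genes 5 rose, among them BMP4 (0.74) and the receptor TGFBR2 (0.35), and 2 fell, ACVR1 (-0.36) and CCN2 (-0.24). 9 rose and 5 fell without 1xCtrl replicate 2, 3 rose without any other single library, and 9 rose and 3 fell with the GC trend removed. The call of CCN2 was kept in 10 of 18 alternatives. Of 21 immediate early genes tested 4 rose and 4 fell, FOSL1 (0.29) and DUSP5 (0.21) against ATF3 (-0.44), DUSP1 (-0.39) and CCN1 (-0.36), for example, but 0 rose without 1xCtrl replicate 1 or SRSF7-OE replicate 1 or 3, and 1 without 1xCtrl replicate 3. FOSL1 and DUSP5 kept their calls in 8 and 9 of 18 alternatives and lost them with the GC trend removed (0.18 and 0.15, edgeR adjusted p = 0.0855 and 0.147), where 2 of the list rose and 5 fell. Against the mean of the other lines 14 of these 21 were lower and 0 higher (median -0.37), where 15.5% of all genes were lower and 16.7% higher.

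EDNRB and AGTR1, the angiotensin II receptor, were the genes called, 1 lower and 1 higher, of 11 tested in endothelin and other vasoactive signalling. These counts were near the shares of all genes tested, of which 9.03% were called higher and 8.26% lower. Without 1xCtrl replicate 2 4 were higher and 2 lower, and with the GC trend removed 3 and 3. AGTR1 was at 0 in both 1xCtrl replicates 2 and 3, at 0.0331 CPM in replicate 1 and at 0.187, 0.155 and 0.129 CPM in SRSF7-OE. Of 13 stem cell markers tested 4 rose, PROM1 (1.33), THY1 (1.10), CD24 (0.43) and ALDH1A3 (0.42), and ALDH1A1 fell (-0.43). THY1 measured 6.97, 9.24 and 6.82 CPM in 1xCtrl and 16.3, 15.6 and 17.4 CPM in SRSF7-OE, with no overlap. Hormone receptor and luminal genes, checked as cell type markers, gave 4 higher of 6, among them ESR1 (0.31), GATA3 (0.32) and FOXA1 (0.40), and 1 lower. Without 1xCtrl replicate 1 or SRSF7-OE replicate 2, 2 were higher. The gene that fell was PGR, the progesterone receptor, with 264, 262 and 230 counts in 1xCtrl and 0, 2 and 0 counts in SRSF7-OE. It had 0, 0 and 0 counts in SRSF2-OE and 6, 0 and 1 in SRSF3-OE, so that only the shared controls held more than 6 counts.

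SRSF7-OE was next compared directly with the other single lines, which leaves the shared controls out of the difference. In 3540 genes (14.5% of those tested) SRSF7-OE differed from both SRSF2-OE and SRSF3-OE in the same direction, 1801 higher and 1739 lower. Of these, 1341 were also called against 1xCtrl in the same direction, 96 in the opposite one, and 2103 were not called against it. The number was 2516 without SRSF7-OE replicate 3 and 5002 without 1xCtrl replicate 2.

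Among the genes higher than in both other lines were LCN2 and the uroplakin genes. LCN2 measured 5.35, 5.12 and 5.14 CPM in SRSF2-OE and 2.35, 2.23 and 2.25 CPM in SRSF3-OE, below the controls, against 16.6 to 20.7 CPM in SRSF7-OE (log2 difference from the mean of both lines 2.43, edgeR adjusted p = 1.15e-08). NGFR measured 5.02 to 5.69 CPM and 4.29 to 4.85 CPM in those lines, against 21.7 to 24.9 CPM (2.24, edgeR adjusted p = 3.5e-08), and UPK2 6.84 to 7.75 and 1.47 to 2.00 CPM, against 16.1 to 19.6 CPM (2.34, edgeR adjusted p = 1.88e-06). For each of these SRSF7-OE stood above all 9 other libraries of the table, but this separation followed from the choice of genes. No overlap with either other line was a condition for the genes named in this comparison. LCN2, NGFR and UPK2 were also among the 14 highest genes, which had to be free of overlap with 1xCtrl. MUC20, a membrane mucin, differed by 2.05 (edgeR adjusted p = 8.56e-08), although 42.8% of its exon bases are shared with MUC20-OT1. UPK3B, another uroplakin gene, differed by 2.61 (edgeR adjusted p = 0.000405), but was not called against 1xCtrl, where 14.1 CPM in replicate 2 overlapped SRSF7-OE (15.6, 10.2 and 19.7 CPM, edgeR adjusted p = 0.176).

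Among the genes lower than in both other lines, MMP1, interstitial collagenase, and IL24 stood far apart. MMP1 measured 1181, 978 and 1267 CPM in 1xCtrl and 631, 686 and 595 CPM in SRSF7-OE (log2 fold change -0.84, edgeR adjusted p = 0.000123). In SRSF2-OE it stood at 1873, 2123 and 2051 CPM and in SRSF3-OE at 2717, 2493 and 2508 CPM, above the controls, so that SRSF7-OE was lower than their mean by 1.84 (edgeR adjusted p = 2.92e-08). IL24, a cytokine of the interleukin 10 family, measured 0.932, 0.780 and 0.837 CPM in 1xCtrl and 0.163, 0.255 and 0.303 CPM in SRSF7-OE. It stood at 1.01 to 1.39 CPM in SRSF2-OE and 15.0 to 15.5 CPM in SRSF3-OE (difference from their mean -4.11, edgeR adjusted p = 2.67e-08). AJAP1, an adherens junction protein (-2.03), TRPC6, a calcium-permeable channel (-1.98), and the myosin gene MYH15 (-1.91) followed, and all were also lower than in 1xCtrl, by 0.34, 0.44 and 0.60.

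**Figure D5:**
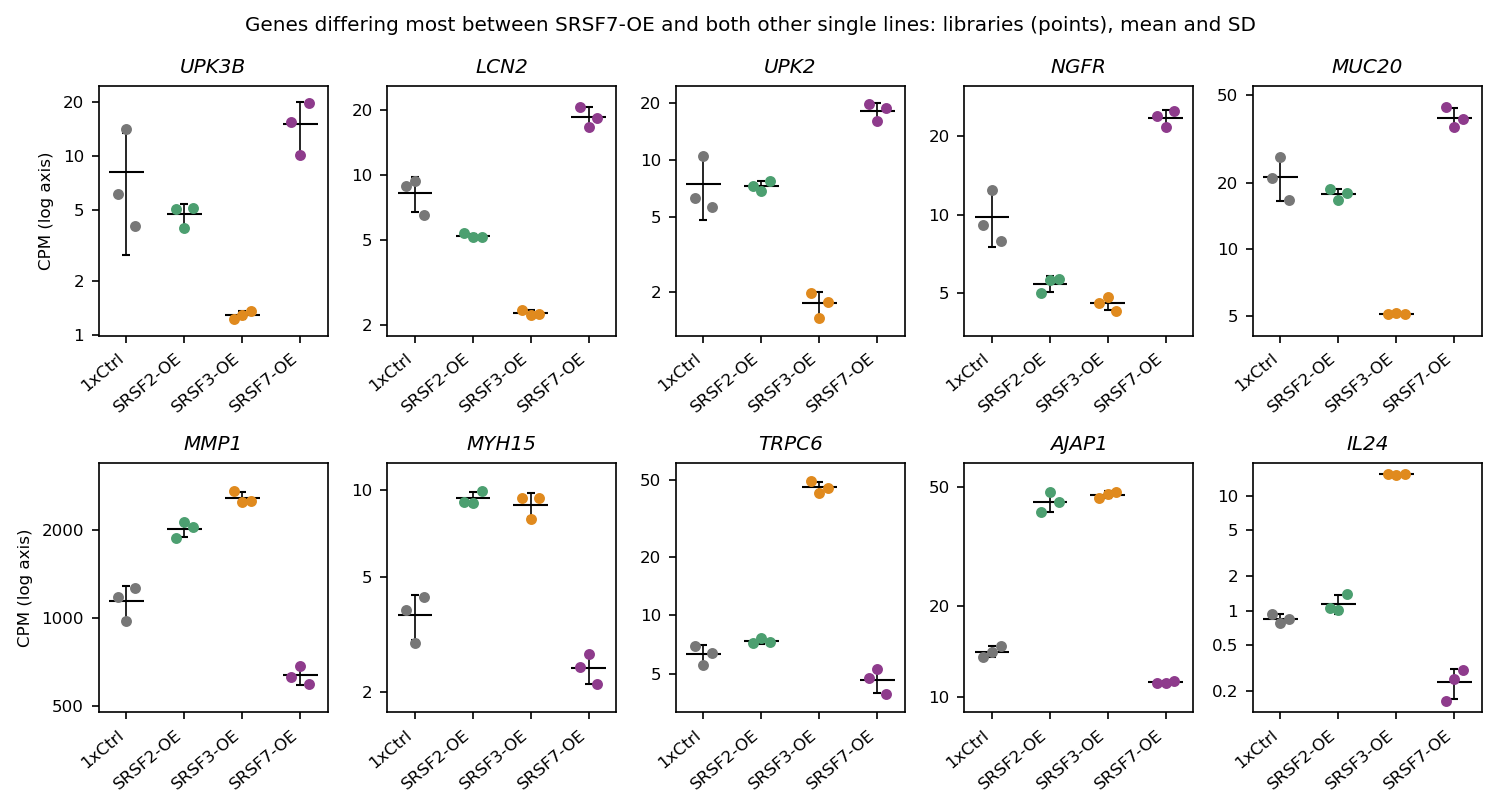
CPM (log axis, scaled for each gene) of the 5 genes most above and the 5 most below both other single lines, by library (points), with mean and SD (n = 3). A gap to both SRSF2-OE and SRSF3-OE was a condition for choosing these genes. The SRSF7-OE libraries lie above all others for LCN2, UPK2, NGFR and MUC20 and below all others for the lower row. UPK3B overlaps 1xCtrl.

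The 28 leading genes were picked on extreme values in the SRSF7-OE libraries, which favours agreement in other comparisons of those libraries. Of the 28, 25 differed from the mean of the other lines in the direction in which they differed from 1xCtrl, where 32.2% of all genes were called in either direction. The exceptions were PLCXD3 and ABCC2, which did not pass, and HMCN1, which was higher in SRSF7-OE (7.54 to 8.78 CPM) than in SRSF2-OE (5.02 to 5.57 CPM) and SRSF3-OE (3.85 to 4.62 CPM), by 0.75 (edgeR adjusted p = 5.4e-05), though it was lower than the controls in each line. Against the shared 1xCtrl libraries, 22 of the 28 were called in the same direction in SRSF2-OE and 3 in the opposite one. In SRSF3-OE 4 were called in the same direction and 12 in the opposite one. Several of the 28 did not differ from SRSF2-OE alone: CPVL stood at 13.4 to 14.6 CPM there (difference 0.17, edgeR adjusted p = 0.242), NPNT at 12.3 to 13.9 CPM (0.19, edgeR adjusted p = 0.185), and FHAD1 differed by 0.00 (edgeR adjusted p = 0.985). In SRSF3-OE CPVL measured 4.98 to 6.49 CPM and NPNT 2.66 to 3.26 CPM, well below SRSF7-OE.

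The same 28 genes were read in 3xSR against 3xCTL, which share no library with this comparison. There 14 were called in the same direction, 10 in the opposite one and 4 did not pass, where 29% of all genes tested were called. CPVL went the same way, from 0.162, 0.308 and 0.339 CPM in 3xCTL to 6.08, 6.49 and 5.98 CPM in 3xSR (log2 fold change 4.55, edgeR adjusted p = 1.01e-07), and HMCN1 too, from 31.9, 33.7 and 34.0 CPM to 10.5, 9.38 and 10.1 CPM (-1.73). CDH11 went the opposite way, from 7.98, 8.37 and 9.12 CPM to 33.3, 31.6 and 32.0 CPM (1.93, edgeR adjusted p = 4.57e-09), as did LCN2, from 19.9, 16.7 and 18.4 CPM to 6.71, 9.10 and 8.25 CPM (-1.19). FN1 and NGFR did not pass (0.02 and 0.11, edgeR adjusted p = 0.873 and 0.67). MMP1, which fell in SRSF7-OE, rose in 3xSR by 2.22 (edgeR adjusted p = 3.19e-09).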

How the data were processed

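RNA-seq libraries were polyA-selected and stranded, per the labels' protocols. The authors deposited whole-number counts per versioned Ensembl gene, unscaled. The submitters' processing notes name Trimmomatic 0.39, STAR and StringTie 2.1.3b and the build GRCh38.p13, with no role or order; the strand setting is not given in the sources used here.

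Groups and replicate numbers came from the titles. In R 4.3.3, edgeR 4.0.16 was fitted to the 12 libraries of the table, which share 1 estimate of the spread: filterByExpr (minimum count 10), TMM scaling, robust quasi-likelihood F test, Benjamini-Hochberg adjustment over 24362 genes of 60668, threshold 0.05, both directions. The standard error is the absolute log2 fold change over the square root of F. 3xSR was fitted in its own table. Positions, exon overlap, transcript length and GC content came from GENCODE 29, matched by identifier (58561 found), which may not be the release counted.

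Alternatives were RLE, upper-quartile and total-count scaling, no filter or at least 10 counts in every library, DESeq2 1.42.0, limma-voom (limma 3.58.1), the replicate block, the GC trend removed (50 bins), only the 2 groups, and each library left out; removal of the length trend was added after seeing the data. The members, gene lists, naming rule and tests were chosen with earlier results of these data known. Named are the SR family, MYC, the 14 highest and 14 lowest genes (called, symbol, mean of at least 5 CPM, no overlap of groups, at most 50% of exon bases shared on the same strand), the 5 most above and below both other lines, and for each of 29 lists its most changed called members of at least 1 CPM; other list members were named after their values were seen. The 5 above and 5 below both other lines met the same conditions of level and shared exons, and overlapped neither line. Same-numbered libraries did not deviate together (correlations -0.0165, -0.19 and -0.115). Libraries of a group were not duplicates (their counts gave a chi-square of 26.2 to 275 per degree of freedom). The floor of 3 counts covers counting error only. The procedure was tested on simulated data. Some list members are not reported here.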

Additional observations from a re-analysis of the deposited data

Results flagged for a closer look

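The difference between SRSF7-OE and the mean of SRSF2-OE and SRSF3-OE passed the edgeR test (adjusted p under 0.05 over all genes) for 39 named genes, each listed here as a log2 difference. It equals the difference of the lines' changes from the shared controls. Above the mean of the other lines were UPK3B (2.61), LCN2 (2.43), UPK2 (2.34), NGFR (2.24), MUC20 (2.05), PLAAT4 (1.71), SLC40A1 (1.28), NPNT (1.27), SLC1A3 (1.26), FN1 (1.12), ANXA6 (0.91), ADD2 (0.91), ZNF711 (0.89), CPVL (0.81), HMCN1 (0.75), IL7R (0.40) and LBH (0.35). IL7R and LBH were nevertheless lower in SRSF7-OE than in SRSF2-OE (-0.55 and -0.35, edgeR adjusted p = 0.000415 and 0.00805).

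Below the mean of the other lines were, among SR protein genes, SRSF11 (-0.24), SRSF3 (-0.31), SRSF2 (-0.31), TRA2B (-0.31), SRSF10 (-0.31) and SRSF6 (-0.38). SRSF2 and SRSF3 are the genes named by the labels of the lines in that mean. Among the leading decreases they were ROR1 (-0.31), FHAD1 (-0.39), EDNRB (-0.39), JPH3 (-0.48), PCDH9 (-0.66), PTPRZ1 (-0.76), LINC02474 (-0.79), CHP1P2 (-0.85), CYP27C1 (-1.03), CDH11 (-1.50) and NPFFR2 (-1.52). EDNRB was higher than in SRSF2-OE (0.47, edgeR adjusted p = 0.0129) and lower than in SRSF3-OE (-1.26, edgeR adjusted p = 5.82e-06). The remaining genes were MMP1 (-1.84), MYH15 (-1.91), TRPC6 (-1.98), AJAP1 (-2.03) and IL24 (-4.11).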

How the results depend on the processing

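The number of genes changed in SRSF7-OE against 1xCtrl (4214) was 7005 with the GC trend removed, 6494 with it removed together with a replicate block, 2251 when only the 2 groups were fitted, and from 2685 to 7321 with 1 library left out. A replicate block alone gave 3362, DESeq2 4816 and limma-voom 4436; the replicate numbers are not shown to pair the libraries. The number of genes that differ between SRSF7-OE and both other single lines (3540) ranged from 2516 to 5002 with 1 library left out. The SRSF7 call and the calls of the 28 leading genes held under all 18 alternatives, the replicate block included. SR protein genes that did not pass changed sign around 0. SRSF1 (0.02) was -0.02 with upper-quartile scaling, -0.01 with the length trend removed, and -0.02 to 0.02 with 1 library left out. SRSF4 (0.00) was 0.02 with the GC trend removed, alone or with the block, 0.06 with the length trend removed, and -0.08 to 0.01 with 1 library left out. SRSF6 (-0.01) was 0.01 with the GC trend removed, alone or with the block, and -0.07 to 0.02 with 1 library left out. SRSF8 (0.05) was -0.01 to 0.10 with 1 library left out. The cause was not tested. Fitting only the 2 groups ended the call of 48 of 155 named genes, the most of any alternative run. Depth limits genes near the floor, such as SRSF12 and AGTR1.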
